A study of Mus musculus with 2 samples.

Results

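Telomere protection genes were examined in hindlimb skeletal muscle of mice that overexpress syntaxin 4. The genes were the 7 subunits of shelterin (Terf1, Terf2, Terf2ip, Tinf2, Acd, Pot1a and Pot1b), the telomerase reverse transcriptase Tert and the helicases Wrn and Rtel1, taken as a named list. All 10 were present, each as 1 probe set whose platform annotation gives that gene alone, among 19938 named genes and 35556 probe sets. The comparison rests on 1 Syn4 transgenic array (Syn4 transgene, overexpression) and 1 wild-type array. Both came from male C57BL/6J mice on a standard chow diet, and the labels used here state neither their age, nor how many stand behind an array, nor the promoter of the transgene. Values are log2 intensities after RMA, a robust summary of the probes of a probe set, and each difference is transgenic minus wild type. With 1 array per genotype no difference could be set against the spread between mice, so all differences below are descriptions of these arrays without a test.

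Shelterin is the protein complex that coats the TTAGGG repeats at chromosome ends and keeps the cell from reading them as broken DNA. TRF1 and TRF2, encoded by Terf1 and Terf2, bind the duplex repeats, RAP1 (Terf2ip) sits on TRF2, TIN2 (Tinf2) bridges TRF1 and TRF2, and TPP1 (Acd) joins TIN2 to POT1, which covers the single-stranded end. Telomerase adds repeats by copying its RNA template, and the helicases WRN and RTEL1 unwind structures that stall replication of the repeats. Adult muscle fibres do not divide, and telomerase is known mainly from germ cells and dividing cells in humans. The series title names increased longevity and insulin sensitivity in these mice, and telomere maintenance is a pathway often studied in ageing.

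Promoter windows are shown for Pot1a and Pot1b, the duplicated POT1 genes of the mouse, and for Tinf2, which lies in the same branch of the complex and was, like them, lower in the transgenic array. RefSeq windows of build GRCm38.p6, from 250 bases before to 50 after a gene's start, were held for 8 of the 10 genes. Terf1 and Wrn had no window, so no motif was searched for them. Several short motifs were searched on both strands. Capitals mark 3 kinds of them: the cyclic AMP response element TGACGTCA, the NRF1 core GCATGCG and the ETS motif CCGGAAG. In the Pot1a window, chr6:25809169-25809468 on the minus strand, the first and the second of these are marked. In the Pot1b window, chr17:55712587-55712886 on the minus strand (the first listed of its 2 starts), the second and the third are marked. In the Tinf2 window, chr14:55681768-55682067 on the minus strand, the first and the third are marked.
Pot1a: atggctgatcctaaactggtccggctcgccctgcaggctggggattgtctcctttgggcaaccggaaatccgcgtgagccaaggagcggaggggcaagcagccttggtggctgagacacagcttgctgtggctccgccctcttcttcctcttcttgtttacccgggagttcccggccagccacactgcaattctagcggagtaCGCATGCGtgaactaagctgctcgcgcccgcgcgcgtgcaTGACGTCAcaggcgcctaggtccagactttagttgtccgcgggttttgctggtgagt
Pot1b: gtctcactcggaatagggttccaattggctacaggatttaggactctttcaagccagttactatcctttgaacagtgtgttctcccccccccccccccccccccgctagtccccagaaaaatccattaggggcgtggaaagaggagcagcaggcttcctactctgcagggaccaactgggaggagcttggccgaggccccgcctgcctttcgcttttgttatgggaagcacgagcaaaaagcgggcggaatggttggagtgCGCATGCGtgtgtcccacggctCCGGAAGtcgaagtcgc
Tinf2: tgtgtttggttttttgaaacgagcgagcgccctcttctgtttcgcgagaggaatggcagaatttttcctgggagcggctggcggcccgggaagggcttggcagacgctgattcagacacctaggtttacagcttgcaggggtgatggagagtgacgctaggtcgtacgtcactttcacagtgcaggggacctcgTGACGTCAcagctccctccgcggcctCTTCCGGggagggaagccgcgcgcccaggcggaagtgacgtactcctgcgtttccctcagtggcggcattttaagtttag

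The response element stood in 1.79% of all 32851 windows of this length, and among the telomere protection genes in those of Pot1a and Tinf2. The NRF1 core stood in 3.58% of all windows, and here in those of both Pot1 genes. It lies within CGCATGCGTG, the longest run of bases that the Pot1a and Pot1b windows share, which 0.353% of all windows hold. The window of Acd, the remaining gene of this branch and also lower, held none of these 3 motifs and is not printed. The windows of Tert, lower at -0.07, and of Terf2, higher at 0.09, held none of them either. The ETS motif stood in 8.86% of all windows and in those of Rtel1, Terf2ip, Tinf2 and Pot1b, of which Rtel1 and Terf2ip were higher. The other motifs searched are not marked. The GC box GGGCGG stood in 35.7% of all windows and in those of Rtel1, Pot1a, Terf2, Terf2ip, Tert and Pot1b. The telomere repeat TTAGGG stood in 10.6% of all windows and here in that of Pot1b. The E-box CACGTG stood in 7.15% of all windows and in no window held for these genes, which leaves out Terf1 and Wrn. These matches describe the letters of the windows, and the arrays measured transcripts, not binding at these windows. A relation of the motifs to the differences was not tested.

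The arrays had equal medians of 6.06, and the median difference over all named genes was 0.00. Stx4a, the mouse gene for syntaxin 4, had 12.20 on the transgenic array against 8.84 on the wild-type one, so the overexpressed gene was brighter in the array labelled transgenic. The muscle fibre list, with Acta1, Ckm and Myh4 among its 11 markers, summed to a linear intensity of 183278 in the transgenic and 178484 in the wild-type array. RMA gives no call of presence, so dim values were read beside 1015 olfactory receptor genes, a family mostly silent in muscle, whose 95th percentile was 5.42. A gene passed the rule of size when the difference reached 1.5-fold (0.58 on the log2 scale) and the brighter array reached a level filter of 6.79, the median over all genes of the brighter value. Where this rule is not named, higher and lower give only the sign of a difference. Levels of different probe sets depend on their probes and were not compared with each other as amounts of RNA.

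Most telomere protection genes had close to equal signal in both genotypes, and Terf1 was the exception. Of the 10 genes, 5 were above 0 and 5 below, with a median difference of 0.01. Apart from Terf1, the 9 others lay between -0.25 and 0.21. Among them, Acd, Pot1b, Tert and Wrn lay under the level filter in both arrays, so their near-equal values come from dim signal. The median size of difference, without regard to sign, was 0.135 over the 10 genes and 0.14 over all named genes. Only Terf1 passed the rule of size as higher and 0 passed as lower. Among the 9974 genes that passed the level filter, 2.66% were higher and 1.71% lower by that rule. With 6 of the 10 genes passing the level filter, a count of 1 is too small to be read against those shares.

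**Figure D1:**
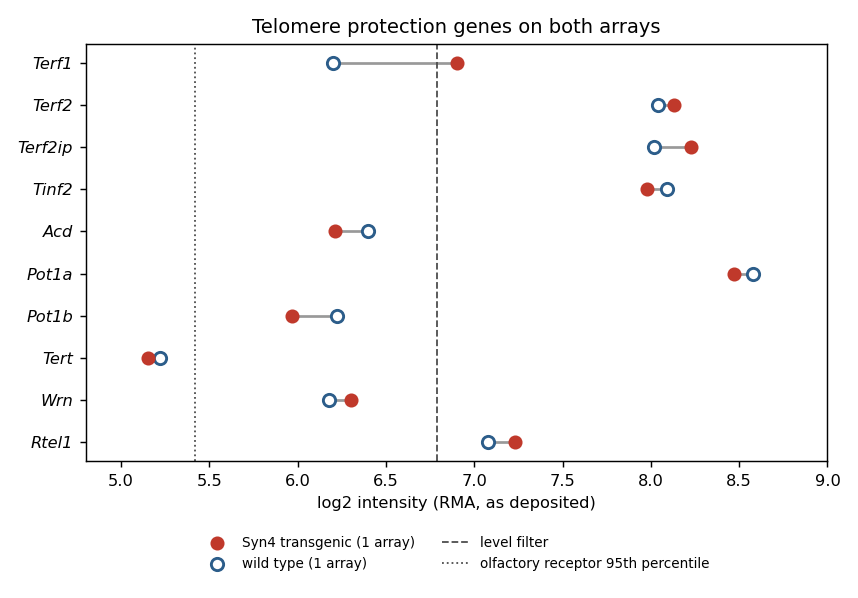
The plot gives the log2 intensity (x axis) of each telomere protection gene (rows) in the transgenic (filled) and the wild-type array (open), 1 array each and so without error bars. Terf1 has the widest gap, 6.90 against 6.20, and Tert lies left of the olfactory receptor percentile of 5.42 in both arrays.

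Among the subunits that bind duplex repeats, Terf1 was higher in transgenic muscle and its relative Terf2 was near equal. Terf1, on chromosome 1, encodes TRF1, which helps replication forks pass through telomeres and restrains telomerase access. It was at 6.90 in the transgenic and 6.20 in the wild-type array, a difference of 0.70 or 1.62-fold. The wild-type value lay under the level filter of 6.79 and the transgenic value 0.11 above it, so Terf1 entered the count through the transgenic array. Of the 1015 olfactory receptor genes, 3 were at least as bright as Terf1 in the transgenic array, and 12 were in the wild-type array. Among the 500 genes nearest to Terf1 in mean level, 10 (2.0%) were higher by at least 1.5-fold and 7 (1.4%) lower, at any brightness. Of those 500 neighbours in level, 7 had a difference at or above that of Terf1, and 12 had one at least as large in either direction. Across all genes that passed the level filter, 184 differed by as much as Terf1 or more in the positive direction, Terf1 included. In gene order along the chromosome, the nearest measured gene before Terf1, the potassium channel gene Kcnb2, was at 4.50 in the transgenic and 4.59 in the wild-type array. The nearest after it, Sbspon, was at 6.52 in the transgenic and 6.08 in the wild-type array, a difference of 0.44 under the level filter.

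Terf2, on chromosome 8, encodes TRF2, which folds the end into a loop and blocks its fusion to other ends. It was at 8.13 in the transgenic and 8.04 in the wild-type array, a difference of 0.09. Of the 500 genes nearest to it in level, 350 differed by at least as much in either direction. Terf2ip encodes RAP1, which binds TRF2 and in mice also acts away from telomeres in metabolic gene control. It was at 8.23 in the transgenic and 8.02 in the wild-type array, and the difference of 0.21 was matched or exceeded in size by 177 of its 500 neighbours in level. Of the nearest genes on either side, Kars, the lysyl-tRNA synthetase gene, differed by 0.06 and Cntnap4 by 0.23, the second under the level filter.

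The subunits that bridge to and cover the single-stranded end were all below 0, each by less than the rule of size. Differences of at least these sizes were common among genes of their level. Tinf2, on chromosome 14, encodes TIN2, the hub of the complex. It was at 7.98 in the transgenic and 8.09 in the wild-type array, a difference of -0.11. Of the 500 genes nearest to Tinf2 in level, 303 differed by at least as much in either direction. Acd, on chromosome 8, encodes TPP1, which also recruits telomerase. It was at 6.21 in the transgenic and 6.40 in the wild-type array, a difference of -0.19. For Acd, 216 of its 500 neighbours in level differed by at least as much. Its annotated span overlaps those of the cell polarity gene Pard6a, which differed by -0.21, and of Carmil2, which differed by -0.07. Of the nearest genes on either side, Enkd1 differed by -0.20 and Ctcf, which encodes a chromatin insulator protein, by 0.00. Signal from overlapping genes may not be fully separable, and a share of it in the Acd value was not tested.

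Pot1a and Pot1b divide in mice the work of a single human POT1. Pot1a, which represses damage signalling through the kinase ATR, was at 8.47 in the transgenic and 8.58 in the wild-type array, a difference of -0.11. Of the 500 genes nearest to Pot1a in level, 322 differed by at least as much. Pot1b, which limits trimming of the opposite strand, was at 5.97 in the transgenic and 6.22 in the wild-type array, a difference of -0.25. Pot1b had the lowest difference of the 10 genes, and 141 of its 500 neighbours in level differed by at least as much in either direction. Acd and Pot1b lay under the level filter in both arrays. Over the 7 shelterin genes, 3 were higher and 4 lower, with a median of -0.11 and a mean of 0.05. The mean has the opposite sign and includes the 0.70 of Terf1.

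Telomerase signal was at background for its catalytic subunit. Tert, on chromosome 13, was at 5.15 in the transgenic and 5.22 in the wild-type array, under the olfactory receptor percentile of 5.42 in both. In each array 82 of the 1015 olfactory receptor genes were at least as bright. A difference of -0.07 at such a level cannot be read as a change or as an absence of change in Tert transcript. Terc, the RNA template of telomerase, was brighter against that background, at 8.11 in the transgenic and 7.85 in the wild-type array (0.26).

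Both helicases were slightly higher in transgenic muscle, within the range of most genes of their level. Wrn, the RecQ helicase lost in the premature ageing disorder Werner syndrome, was at 6.30 in the transgenic and 6.18 in the wild-type array, a difference of 0.12 under the level filter. Rtel1, an iron-sulphur helicase that takes apart telomere loops and guanine quadruplexes, was at 7.23 in the transgenic and 7.08 in the wild-type array, a difference of 0.15. In size, 302 of the 500 genes nearest to Wrn in level and 241 of those nearest to Rtel1 differed by at least as much. Wrn, Acd, Terf2 and Terf2ip all lie on chromosome 8, and their differences of 0.12, -0.19, 0.09 and 0.21 had no common direction.

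**Figure D2:**
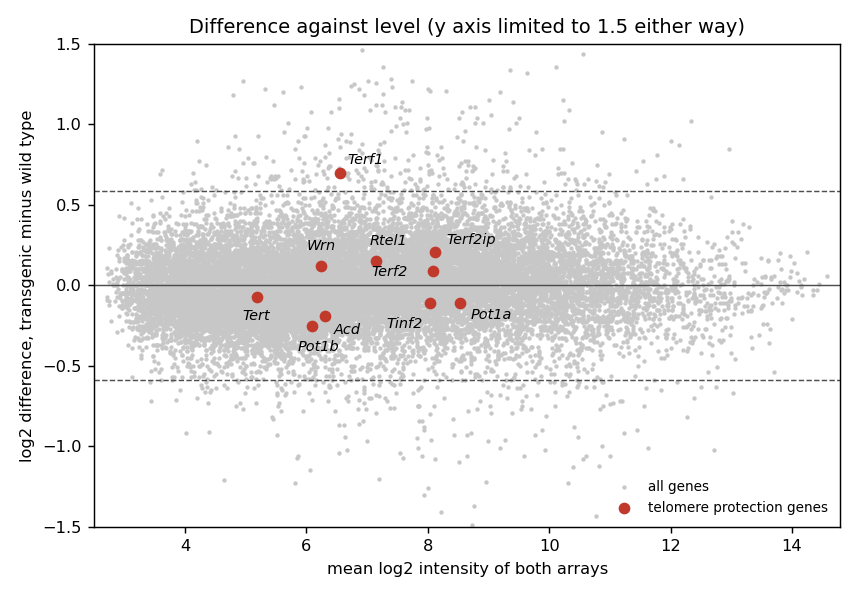
Each point is a gene, with the mean log2 intensity of both arrays on the x axis and the log2 difference, transgenic minus wild type, on the y axis. The dashed lines mark 1.5-fold, 45 genes lie outside the drawn range, and among the labelled telomere protection genes only Terf1, at 0.70, lies beyond a dashed line.

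The wider telomere pathway was read from 9 lists of 91 genes, the 10 genes above included, of which 87 were measured. Across the 87, 51 were above 0, 33 below and 3 at 0, and the median was 0.08. Over all named genes 46.9% were above 0, and over those passing the level filter 53.5%. Of the 77 measured genes besides the 10, 0 reached 1.5-fold, and they ran from -0.51 to 0.54. Among all genes passing the level filter, 2.66% were higher and 1.71% lower by 1.5-fold. With 55 of the 77 passing that filter, a count of 0 is too small to be read against those shares. At a smaller size of 1.3-fold, 6 of the 61 list genes that passed the level filter were higher and 1 lower. The corresponding shares of all genes passing it were 7.55% and 5.01%. Besides Terf1, the 6 were Prkdc, Atrx, Tnks, Rad50 and Atr, the last pair named after their values were seen.

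In the list of telomerase and its assembly, more genes lay below 0 than above. Of 13 measured genes, Tert included, 5 were higher and 8 lower, with a median of -0.06. Over all named genes 46.9% were above 0. Terc was the highest of the list. The lowest was Dkc1, which encodes dyskerin, the pseudouridine synthase that stabilises the telomerase RNA, at 8.13 in the transgenic and 8.41 in the wild-type array (-0.28). Dyskerin also serves ribosomal RNA modification, so these genes are not particular to telomeres. Of 5 genes of single-strand binding and flap processing, all were lower, with a median of -0.13. The lowest was Rpa3, the small subunit of replication protein A, at 6.74 in the transgenic and 7.25 in the wild-type array (-0.51), and its other probe set differed by -0.30. The highest was Rpa2, another subunit, at -0.06.

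Helicases of the pathway lay mostly above 0. Of 12 measured, Wrn and Rtel1 included, 10 were higher, 1 lower and 1 equal, with a median of 0.16 against 0.00 over all genes. Blm, the RecQ helicase of Bloom syndrome, was highest at 5.88 in the transgenic and 5.56 in the wild-type array (0.32), under the level filter. Dna2, a helicase and nuclease, was lowest at -0.23 and lay below the olfactory receptor percentile. Only 5 of these 12 passed the level filter. The CST complex and the polymerase that fills in the complementary strand had 5 genes higher and 2 lower of 7, with a median of 0.04. Their extremes were Prim1, a primase subunit, at 0.30 and below the olfactory receptor percentile, and Pola2, a polymerase alpha subunit, at -0.27.

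Of 13 shelterin partners and modifiers, 9 were higher, 3 lower and 1 equal, with a median of 0.14. Tnks, the tankyrase that releases TRF1 from telomeres in human cells, was highest at 9.24 in the transgenic and 8.81 in the wild-type array (0.43). Slx4, a nuclease scaffold, was lowest at -0.17. Of 12 genes of end recognition and repair, 7 were higher and 5 lower, with a median of 0.09. That median was 0.21 over the genes passing the level filter and -0.005 once the span medians described below were taken off. Prkdc, the catalytic subunit of DNA-dependent protein kinase, was at 7.61 in the transgenic and 7.07 in the wild-type array (0.54). Rad50, of the end-binding MRN complex, differed by 0.41 and the kinase gene Atr by 0.40, whereas the checkpoint kinase gene Chek1 was at -0.15 and under the olfactory receptor percentile. Of 12 genes of telomeric chromatin, 9 were higher and 3 lower, with a median of 0.10. Atrx, a chromatin remodeller that deposits histone H3.3 at telomeres, was at 8.88 in the transgenic and 8.36 in the wild-type array (0.52). H3f3a, an H3.3 gene, was lowest at -0.13. Its values of 5.45 in the transgenic and 5.58 in the wild-type array lay under the level filter and near the olfactory receptor percentile. Of 6 genes of meiotic telomere attachment, 3 were higher, 2 lower and 1 equal, from Sun2 at -0.06 to Kash5 at 0.22, and 3 of the 6 were below the olfactory receptor percentile.

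**Figure D3:**
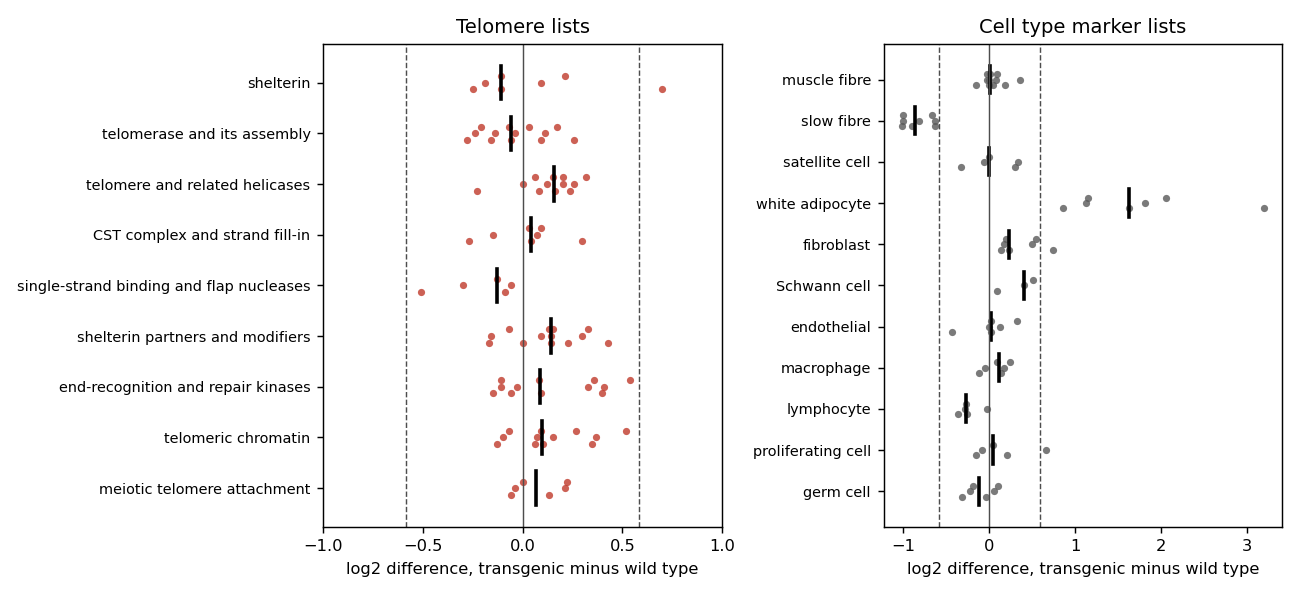
Each point is a measured gene of a list (rows), placed by its log2 difference, transgenic minus wild type, and the black bar is the list's median. The dashed lines mark 1.5-fold: among the telomere lists on the left only Terf1 lies beyond them, while on the right all 8 slow fibre and all 7 white adipocyte markers do.

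Markers of white adipocytes and of slow fibres differed between the arrays by more than 1.5-fold. In bulk tissue, fewer cells of a type and less RNA per cell cannot be told apart. All 7 white adipocyte markers were higher by at least 1.5-fold and summed to a linear intensity of 3686 in the transgenic and 1136 in the wild-type array. All 8 slow fibre markers were lower by that rule and summed to 30870 in the transgenic and 53422 in the wild-type array. The 7 fibroblast markers were all above 0, with a sum of 17188 in the transgenic and 14629 in the wild-type array, and Lum (0.74) passed 1.5-fold. The 3 measured Schwann cell markers were above 0 as well, with a sum of 3629 in the transgenic and 2754 in the wild-type array. They were Mbp at 0.51, Pmp22 at 0.40 and Sox10 at 0.09. Most of that sum came from Pmp22, at 11.64 in the transgenic and 11.24 in the wild-type array. Satellite cell markers summed to 765 in the transgenic and 769 in the wild-type array. Of these 5 markers, 2 were above 0, 2 below and 1 at 0, from Pax7 at -0.33 to Myf5 at 0.33, and 2 passed the level filter. Endothelial markers summed to 4689 in the transgenic and 4743 in the wild-type array. Of these 6 markers, 4 were above 0, 1 below and 1 at 0, from Kdr at -0.44 to Vwf at 0.32. Macrophage markers summed to 2108 in the transgenic and 1963 in the wild-type array. They ran from Adgre1 at -0.12 to Mrc1 at 0.24, with 4 of the 6 above 0 and 2 below, and 4 passed the level filter. Of 5 measured proliferation markers, 3 were above 0 and 2 below, and none passed the level filter. Among them Ccna2, which encodes cyclin A2, was at 5.80 in the transgenic and 5.14 in the wild-type array, a difference of 0.66 or 1.58-fold. The other proliferation markers were Top2a at 0.21, Mki67 at 0.04, Cdk1 at -0.09 and Birc5 at -0.16. In all, proliferation markers, Ccna2 included, summed to 211 in the transgenic and 190.4 in the wild-type array. All 5 measured lymphocyte markers were below 0 under that filter. All 6 germ cell markers, in whose cells telomerase is used, lay under the olfactory receptor percentile. The part of these differences, that of Ccna2 included, in the Terf1 difference was not tested.

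Differences also moved with the annotated span of a gene, which touches the highest members of the wider lists. Among genes that passed the level filter, the shortest quintile, with a median span of 4.42 kb, had a median difference of -0.07, and 36.4% of it was above 0. The longest quintile, with a median span of 121 kb, had a median difference of 0.11, and 69.5% of it was above 0. Of 12 list genes in the shortest quintile, 5 were higher and 7 lower, and of 15 in the longest, 13 were higher and 2 lower, with medians of -0.12 and 0.26. Prkdc (204.8 kb), Tnks (136.5 kb), Atrx (131.8 kb) and Atr (95.6 kb) fall in the longest quintile and Rpa3 (3.2 kb) in the shortest. Spearman's rho between span and difference was 0.26 over 9970 genes passing the level filter and 0.42 over the 61 telomere list genes that passed it. Without the filter it was 0.18 over 19919 genes and 0.34 over the 87 telomere list genes. These are descriptions over genes of the same pair of arrays. Terf1, with a span of 38.5 kb, falls in the fourth quintile, whose median difference was 0.07. With that median taken off, an adjustment chosen after seeing the data, Terf1 differed by 0.63 and remained past 1.5-fold. The same step left Wrn, the longest of the 10 genes at 151.2 kb, at 0.01, and Pot1b at -0.32. The cause of the slope was not tested.

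**Figure D4:**
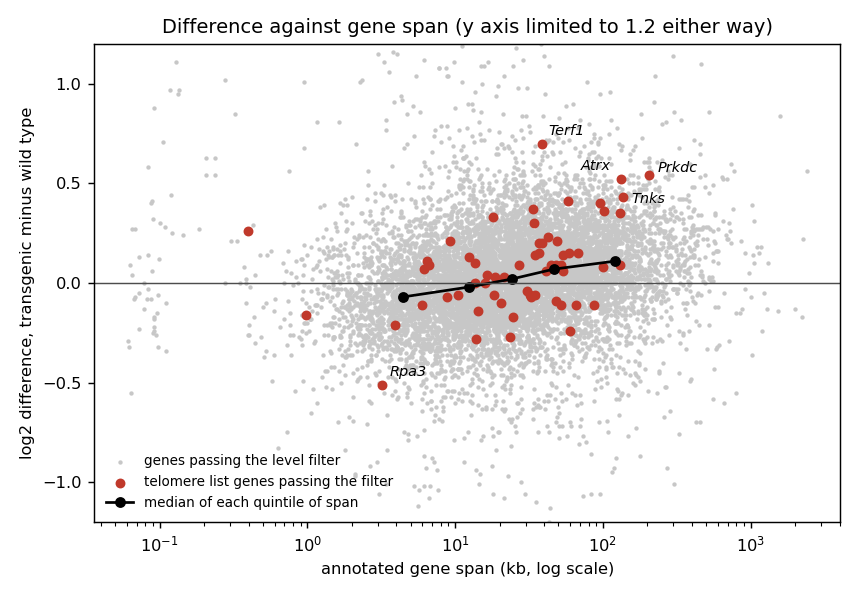
The log2 difference, transgenic minus wild type (y axis), is drawn against annotated gene span in kb (x axis, log scale) for genes passing the level filter, with telomere list genes in red and the median of each quintile of span in black. The black line climbs with span, Prkdc, Atrx and Tnks lie to its right end, Terf1 lies above the cloud's centre at 0.70, and 68 genes fall outside the drawn range.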

How the data were processed

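Gene expression was profiled in hindlimb muscle with 1 transgenic and 1 wild-type array. Per the labels' protocols, a Qiagen kit was used for total RNA, and Ambion and Affymetrix kits for biotin-labelled whole-transcript target. The deposited log2 intensities were made by the authors with RMA in Partek, per the submitters' processing notes; neither versions nor an annotation were stated there. RMA compresses large ratios. Precision is limited by there being 2 arrays. Their sorted values differed by at most 0.14.

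Of 35556 probe sets, 21789 carried 1 symbol in the platform annotation, which can be old, 1621 carried several and 12146 none. Through Entrez identifiers 21698 matched the RefSeq table of GRCm38.p6, with 0 symbols changed. For 999 genes with several probe sets the brightest was used. As the array's build is not stated, only gene order, span and chromosome were taken from that table. Differences, counts and list medians were computed in Python 3.11.15 with pandas 2.3.3, and the loess trend (span 0.3, 3 iterations) with statsmodels 0.14.6. Counting was tested on simulated data. The members and lists were chosen with earlier results of these data known. Named are the 10 genes, the highest and lowest of each telomere list and any telomere list gene past 1.5-fold, the neighbours of genes past it, and Stx4a; the neighbours of Acd, Terf2ip and Terf2, Rad50, Atr and single marker genes were chosen after values were seen.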

Additional observations from a re-analysis of the deposited data

How the results depend on the processing

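The 10 differences, the counts at 1.5-fold and the 9 list medians were recomputed with averaged probe sets, genes of 1 probe set, median centring, a loess trend removed, repeated quantile normalization, other level filters and thresholds, means for medians and, added after seeing the data, the median of the same span quintile removed. Averaged probe sets, genes of 1 probe set and median centring could not move the 10 differences, since each gene has 1 probe set and the array medians are equal. Under the loess, quantile and span settings all 10 kept their direction. Terf1 ranged from 0.63 to 0.71 and quantile normalization shifted the 10 by at most 0.055. With the filter on the dimmer array, or at 2-fold, 0 genes of the 10 and 0 of all lists were higher. At 1.3-fold, 6 list genes were higher and 1 lower. The shelterin median was 0.09 over genes passing the level filter and 0.0486 as a mean, both opposite in sign to -0.11. The end recognition median was 0.21 with either that filter or the olfactory receptor filter and -0.005 with span medians removed. The CST median was 0.00 after quantile normalization and the meiotic median 0.00 with the olfactory receptor filter. Without a level filter as well, 1 gene of the lists was higher. The differences come from 1 array per genotype, so no array could be left out. No paired analysis was possible because each genotype has 1 array. No detection call was used, so values near the olfactory receptor percentile have no firm order.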

Other observations

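Among the 20 measured genes that flank the telomere protection genes, 1 on each side of each, only Cyb5b passed 1.5-fold and the level filter. Most of the 20 lay under that filter and so could not pass, and at any brightness the count at 1.5-fold was also 1. Among all genes passing the filter, 2.66% were higher and 1.71% lower by that rule. A count of 1 is too small to be read against those shares. Cyb5b encodes the cytochrome b5 of the outer mitochondrial membrane and follows Terf2 in gene order on chromosome 8. It was at 9.26 in the transgenic and 9.88 in the wild-type array, a difference of -0.62, whereas Terf2 was at 0.09 and Tmed6, the gene on the other side of Terf2, at 0.05. Cyb5b and Tmed6 were named after their values were seen, and each value is a single measurement per genotype.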
